A study of Mus musculus with 17 samples.

Results

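The 52 genes described here belong to the interferon response and to antigen presentation by major histocompatibility complex (MHC) class I. They were taken by name from a table of 8446 genes: those whose symbol starts with H2-, Ifnar, Ifngr, Ifnlr, Oas, Tap1, Tap2 or Tapb, together with Bst2 and B2m. Symbols that start with Ifi and then a digit or t were also taken, as were those with Irf, Isg, Stat, Gbp or Jak and then a digit. No row matched the H2- part, so the class I heavy chains are not analysed here, and class I is represented by its light chain B2m and by genes of peptide loading. Of the 52, 3 share a name with the families but are other genes: Irf2bp2 and Irf2bpl encode partners of an interferon regulatory factor and Isg20l2 a nucleolar exonuclease.

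RNA was measured in 17 single cells from the back skin of adult C57BL/6 mice that carried Prrx1-CreERT, a tamoxifen-dependent Cre recombinase driven by the mesenchymal gene Prrx1, and a Tomato reporter. All mice received tamoxifen, 2 mg per 30 g of body weight, daily for 3 days. Cells that became Tomato-positive through Cre were released with elastase and then collagenase, sorted, and picked singly. All 17 cells form 1 group without an untreated, uninduced or interferon-treated control, and the labels name no animal for the cells, which makes the values descriptions over cells, with no test between conditions. Of 9 listed fibroblast markers 8 had a row, and all 8 were detected in each cell. Of 6 pericyte or smooth muscle markers 0 to 5 were detected per cell, of 3 measured endothelial markers 0 to 2, and of 2 measured keratinocyte markers 0 or 1. Of 19 listed immune cell markers only Csf1r had a row.

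Levels are on the authors' logarithmic scale, taken to be log2(FPKM + 1), where FPKM counts fragments scaled for transcript length and for library size. Detection means FPKM 1 or more, a value of 1. Every cell had 4369 genes (51.7%) at that level because the table had been brought to a common distribution, so a value mainly states where a gene ranked within its cell. Depth per cell is unknown.

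Interferons are cytokines that signal through paired receptor chains. Type I interferons use the receptor of Ifnar1 and Ifnar2, and interferon gamma uses that of Ifngr1 and Ifngr2. Janus kinases on the receptors phosphorylate STAT factors, and a complex that holds STAT factors and Irf9 binds the interferon-stimulated response element in target promoters. MHC class I molecules, made of a heavy chain and B2m, display peptides that the Tap1 and Tap2 transporter brings into the endoplasmic reticulum, and fibroblasts, like nearly all nucleated cells, carry them.

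The interferon-stimulated genes ranged from genes found in every cell to genes found in 1. The 3 Ifitm genes, Ifi27, Ifi27l2a and the p200 genes Ifi203, Ifi204 and Ifi205 were detected in 17 of 17 cells, as was B2m. Isg15 was detected in 6 cells, Ifit1 in 2, Oas1a and Oas1g in 2 each, Oasl2 in 2, and Ifit3 and Ifit3b in 1. Over all 52 genes, 12 (23.1%) were detected in all 17 cells, against 13% of all 8446 rows, and 27 (51.9%) in at least 9 cells, against 46.9%. At FPKM 10, 6 genes (B2m, Ifitm3, Ifitm2, Ifi27l2a, Ifi27 and Ifi205; 11.5%) were found in all cells, against 5.65% of all rows. At the other end 12 genes (23.1%) were detected in only 1 to 3 cells, against 17.9% of all rows. None of the 52 was undetected in every cell, against 0.912% of all rows, and 4 (Stat2, Irf7, Oasl2 and Ifit3b; 7.69%) reached FPKM 10 in no cell, against 5.49%. The highest value was at FPKM 100 or more for 26 genes (50%), against 43.5% of all rows. The median of the means was 2.06 for the 52 genes and 1.89 for all rows. The 52 genes were thus near the table in the median and in the share found in at least 9 cells, and above it in the share found in all cells. The heat map by gene and cell shows the bright bands of B2m and the Ifitm, Ifi27 and p200 families.

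**Figure D1:**
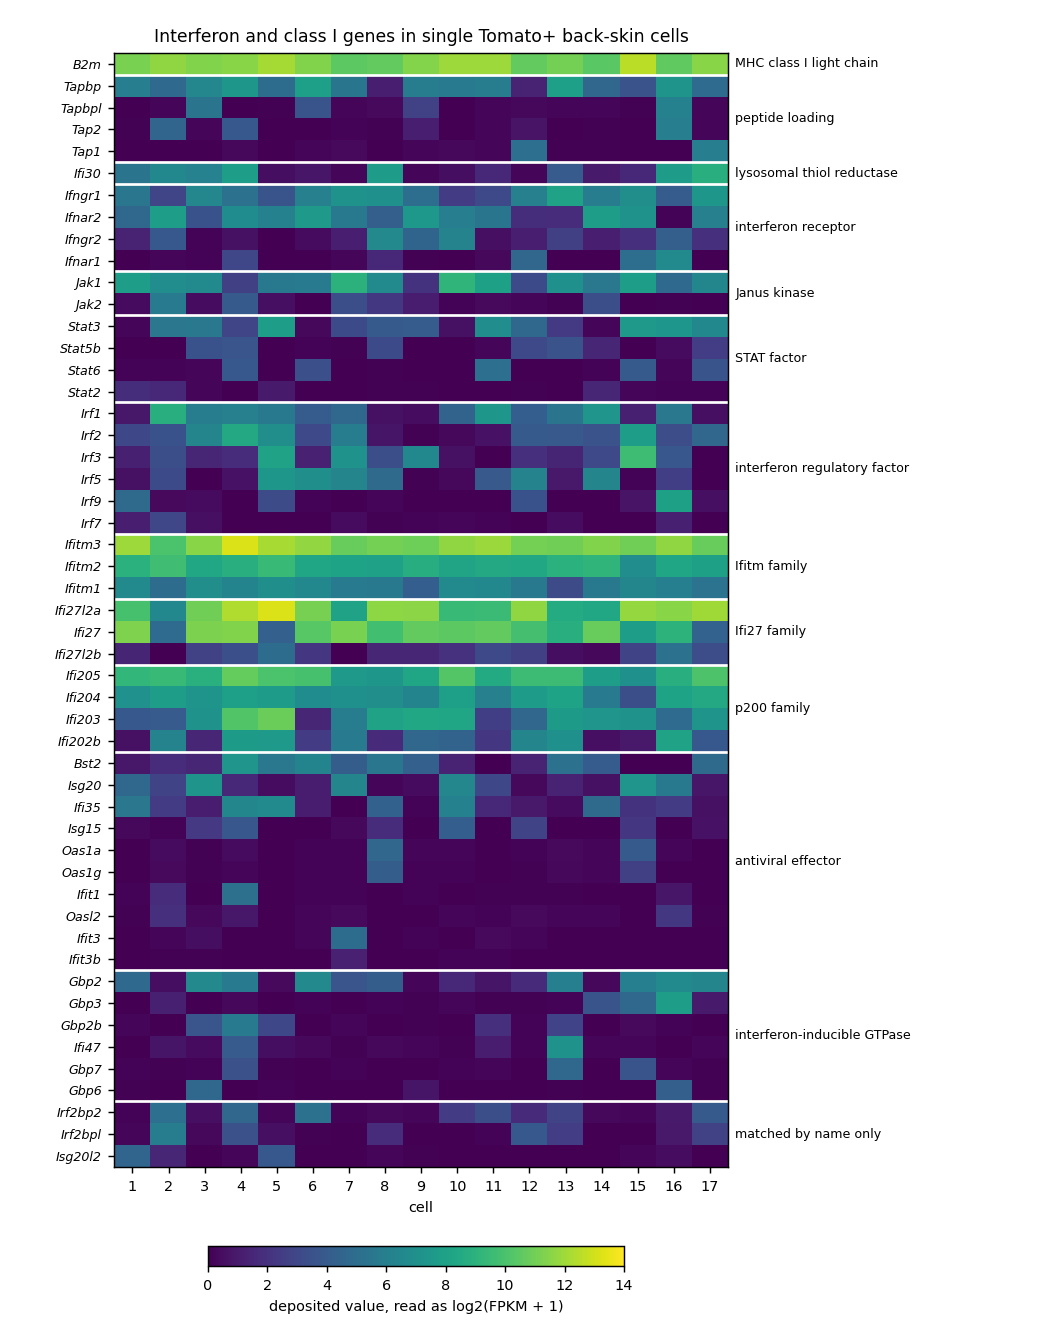
Deposited value, read as log2(FPKM + 1), of the genes described (rows, grouped by role) in each of the 17 cells (columns). B2m, Ifitm3, Ifitm2, Ifi27l2a, Ifi27 and Ifi205 are bright in nearly all cells, whereas Ifit, Oas and most Gbp genes are dark except in 1 to 5 cells.

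A short element of interferon-responsive promoters was present in some of the widely detected members and in some of the sparse ones. The core of the interferon-stimulated response element was searched as GAAA, any 2 bases and GAAA on either strand (TTTC, any 2 bases and TTTC for the reverse) in the 250 bases before the start site of RefSeq genes on GRCm38.p6. Of the 52 genes 44 had an entry, and 17 of these (38.6%) held the core, against 936 of 27025 genes (3.46%). Among members detected in at least 9 cells 7 of 23 held it, and among members detected in fewer cells 10 of 21. The gamma-activated site TTCNNNGAA, the letters bound by STAT dimers, which read the same on both strands, was present in 8 of the 44 (18.2%), against 8.13% of all genes. Matches of the 2 searches overlap in Bst2 and in no other of these genes. Such matches are letters in a window and say nothing of binding in these cells. The 200 bases before the start are given for 4 genes detected in 12 or more cells (B2m, Ifitm2, Ifi205, Gbp2) and 6 sparse effectors, all chosen for holding the core, to show how alike the elements are, with the response element core in capitals, written 5′ to 3′ on the strand of the gene.
B2m, chr2:122147487-122147686, plus strand: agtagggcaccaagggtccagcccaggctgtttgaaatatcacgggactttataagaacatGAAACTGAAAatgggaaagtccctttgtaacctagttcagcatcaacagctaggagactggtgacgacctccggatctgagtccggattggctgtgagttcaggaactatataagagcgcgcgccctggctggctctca
Ifitm2, chr7:140955962-140956161, minus strand: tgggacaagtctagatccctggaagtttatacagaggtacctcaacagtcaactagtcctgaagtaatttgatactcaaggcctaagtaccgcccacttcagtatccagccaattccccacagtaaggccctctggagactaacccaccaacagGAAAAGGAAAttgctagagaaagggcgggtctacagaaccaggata
Ifi205, chr1:174031756-174031955, minus strand: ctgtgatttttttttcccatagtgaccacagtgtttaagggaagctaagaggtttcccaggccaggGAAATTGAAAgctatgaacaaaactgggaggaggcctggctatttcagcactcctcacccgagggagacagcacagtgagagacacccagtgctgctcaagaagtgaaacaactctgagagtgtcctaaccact
Gbp2, chr3:142620463-142620662, plus strand: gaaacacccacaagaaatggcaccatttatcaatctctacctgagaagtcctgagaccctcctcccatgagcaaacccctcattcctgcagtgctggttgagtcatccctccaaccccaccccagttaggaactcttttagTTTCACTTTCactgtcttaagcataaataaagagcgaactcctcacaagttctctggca
Isg15, chr4:156200819-156201018, minus strand: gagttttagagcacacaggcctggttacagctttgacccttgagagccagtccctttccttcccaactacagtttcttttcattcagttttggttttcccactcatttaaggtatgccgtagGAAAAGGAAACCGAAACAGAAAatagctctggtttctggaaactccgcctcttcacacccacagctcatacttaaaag
Ifit1, chr19:34640689-34640888, plus strand: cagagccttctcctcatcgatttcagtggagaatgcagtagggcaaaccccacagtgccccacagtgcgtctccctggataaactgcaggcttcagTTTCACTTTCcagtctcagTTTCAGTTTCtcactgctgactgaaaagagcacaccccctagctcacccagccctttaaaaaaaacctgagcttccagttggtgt
Ifit3, chr19:34583329-34583528, plus strand: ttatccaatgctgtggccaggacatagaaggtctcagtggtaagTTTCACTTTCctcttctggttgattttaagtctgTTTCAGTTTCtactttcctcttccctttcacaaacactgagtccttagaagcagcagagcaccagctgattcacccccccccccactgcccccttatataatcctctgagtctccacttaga
Ifit3b, chr19:34607757-34607956, plus strand: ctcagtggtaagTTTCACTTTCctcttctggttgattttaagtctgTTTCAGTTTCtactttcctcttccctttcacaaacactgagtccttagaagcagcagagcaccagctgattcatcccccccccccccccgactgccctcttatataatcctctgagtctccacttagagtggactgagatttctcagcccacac
Oas1a, chr5:120907526-120907725, minus strand: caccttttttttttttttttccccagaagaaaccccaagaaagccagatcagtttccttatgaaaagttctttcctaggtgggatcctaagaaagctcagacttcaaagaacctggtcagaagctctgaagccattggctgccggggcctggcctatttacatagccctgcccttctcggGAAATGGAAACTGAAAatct
Oas1g, chr5:120887614-120887813, minus strand: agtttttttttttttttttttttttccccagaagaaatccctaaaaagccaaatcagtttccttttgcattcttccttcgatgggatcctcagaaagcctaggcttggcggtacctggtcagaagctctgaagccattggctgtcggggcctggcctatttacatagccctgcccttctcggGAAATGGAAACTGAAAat
B2m has a single GAAACTGAAA from position -139 to -130 before its start, and the same letters end the double core of Oas1a from -14 to -5. Isg15 has 3 overlapping cores from -78 to -57, and Ifit1 and Ifit3 each have the pair TTTCACTTTC and TTTCAGTTTC. The windows of Ifit3 and Ifit3b share an unbroken run of 119 bases, and those of Oas1a and Oas1g one of 56. Ifitm3 had an entry and no core in the 250 bases before its start.

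B2m, the invariant light chain that every class I molecule needs, was among the most abundant transcripts of each cell. Its gene (ENSMUSG00000060802) lies on chromosome 2 from 122147686 to 122153083 in GRCm38, on the plus strand. The lowest value was 10.41 in cell 14, the median 11.37 and the highest 12.56 in cell 15, with a mean of 11.31 (SD 0.63, n = 17 cells). Within a cell B2m ranked between 5 and 67 of the 8446 rows. The SD of 0.63 compares with a median SD of 1.92 over all rows. Most of these rows lie far lower, with a median of their means of 1.89, and no set matched for level was compared. Among other high members, Ifitm3 (mean 11.40) had an SD of 0.73 and Ifi27l2a (mean 10.50) one of 1.81.

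The loading genes were found less regularly, apart from Tapbp. Tapbp, which encodes tapasin, the bridge between the transporter and empty class I molecules, was detected in 17 cells with values of 1.19 (cell 8) to 7.92 (cell 13) and a median of 5.76. Cells 8 and 12, at 1.19 and 1.36, stood well under the others, of which the lowest was 3.60 in cell 15. Tap1 was detected in 2 cells, at 5.12 in cell 12 and 6.00 in cell 17. Tap2 was detected in 4 cells, at 1.16 in cell 9, 3.85 in cell 4, 4.59 in cell 2 and 6.01 in cell 16. No cell had both transporter chains, and 11 cells had neither. The tapasin-related Tapbpl was detected in 4 cells, at most at 6.17 in cell 16. Transcripts of a few copies can be missed in single cells and depth is unknown, so an undetected chain is not shown to be absent.

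Of 12 listed genes around this pathway 9 had rows. Of these 5 were detected in all cells, against 13% of all rows, and 7 in at least 9 cells, against 46.9%. The other 2 were detected in 3 cells or fewer, against 17.9% of all rows in 1 to 3 cells and 0.912% in none. The proteasome activator genes Psme1 (mean 7.11, SD 1.26) and Psme2 (mean 6.96, SD 0.93) and the chaperone genes Canx (mean 6.92, SD 0.78), Calr (mean 6.63, SD 1.49) and Pdia3 (mean 5.07, SD 1.49) were detected in 17 cells. The immunoproteasome subunits, which replace the standard catalytic subunits after interferon gamma, differed among themselves: Psmb10 was detected in 12 cells, Psmb8 in 11 and Psmb9 in 3. Nlrc5, the class I transactivator, was detected in cell 2 alone, at 3.44. Ifi30, the lysosomal thiol reductase that opens disulfide bonds of antigens for MHC class II, was detected in 11 cells with a median of 1.63. It was at 7.72 to 8.78 in cells 4, 8, 16 and 17, and at most 0.86 in 6 cells, so that the 17 values spread over the whole range. Csf1r, the macrophage growth factor receptor, was detected in cells 1, 3, 5, 12 and 17, at 3.15 to 4.69. In these cells Ifi30 was at 5.38, 6.18, 0.50, 0.26 and 8.78, while cells 4, 8 and 16, also high in Ifi30, had no Csf1r at FPKM 1. Its part in the level of Ifi30 was not tested.

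**Figure D2:**
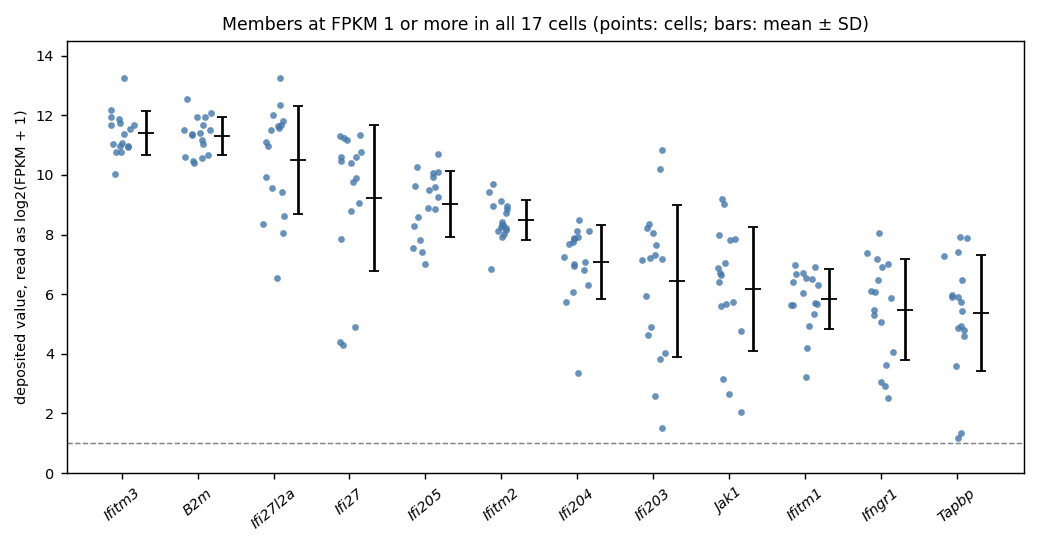
Values in each of 17 cells (points) with mean ± SD (bars) of the 12 genes detected in all cells, on the scale log2(FPKM + 1); the dashed line marks FPKM 1. Ifitm3 and B2m are narrow and high, Ifi27 has 3 cells far below the other 14, and Ifi203, Jak1 and Tapbp are spread widely.

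The 2 chains of each interferon receptor were unequally found. Ifngr1, the ligand-binding chain for interferon gamma, was detected in 17 cells with a lowest value of 2.51 in cell 10, a median of 5.88 and a highest value of 8.06 in cell 13. Ifngr2, its signalling partner, was detected in 12 cells with a median of 1.38 and a highest value of 6.61 in cell 8. Ifnar2 was detected in 16 cells, with a median of 5.96 and a highest value of 7.84 in cell 14, and cell 16 alone was under FPKM 1 at 0.14. Ifnar1 was detected in 5 cells, at 1.64, 2.98, 4.60, 5.08 and 6.62 in cells 8, 4, 12, 15 and 16. In cell 16, therefore, Ifnar1 was highest where Ifnar2 was lowest. Both type I chains were detected together in 4 of 17 cells (exact Clopper-Pearson 95% interval 6.81% to 49.9%) and both type II chains in 12 of 17 (44.0% to 89.7%). The intervals treat the cells as independent, although no animal is named for the cells. They cover counting error over cells only, not differences between animals. Ifnar1, Ifnar2 and Ifngr2 lie in one stretch of chromosome 16, at 91485238 to 91507441, 91372783 to 91405589 and 91547072 to 91565623, all on the plus strand. The ranks of Ifnar1 and Ifnar2 over cells had a Spearman correlation of -0.28.

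Of the kinases, Jak1, which serves both receptors, was detected in 17 cells, from 2.06 in cell 9 to 9.18 in cell 10, with a median of 6.63. Jak2, which pairs with Ifngr2, was detected in 6 cells, at most at 5.73 in cell 2. Both type II chains together with Jak1 and Jak2 were detected in 5 cells. Of 22 further signalling genes 16 had rows, and 9 of these were detected in at least 9 cells, near the 46.9% of all rows. Il6st, the shared receptor chain of the interleukin 6 family, was detected in 17 cells (mean 4.81, SD 1.44), the feedback inhibitors Socs2 in 16 and Socs3 in 15, and the oncostatin M receptor Osmr in 14. Socs1, the inhibitor most tied to interferon gamma signalling, was detected in 5 cells with a highest value of 7.48 in cell 13.

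The STAT factors, which carry the signal to the nucleus, differed widely in how often they were found. Stat3, which acts mainly after interleukin 6 type cytokines, was detected in 13 cells with a median of 4.09 and values up to 7.79 in cell 5. Stat2 was detected in 4 cells, at 1.81, 1.61, 1.53 and 1.03 in cells 1, 2, 14 and 5, and in none at FPKM 10. Irf9, the DNA-binding partner of Stat2, was detected in 4 cells, at 3.21, 3.53, 4.84 and 7.97 in cells 5, 12, 1 and 16. Stat2 and Irf9 were detected together in cells 1 and 5. Stat5b, a growth hormone and cytokine factor, was detected in 7 cells and Stat6, the interleukin 4 factor, in 5.

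Of the other interferon regulatory factors, Irf1, Irf2, Irf3 and Irf5 varied widely from cell to cell. Irf1, an activator of class I genes, was detected in 13 cells, with a median of 4.74 and 8.81 in cell 2. Irf2, its antagonist at many promoters, was also detected in 13, with a median of 3.60 and 8.43 in cell 4. Irf3, activated by nucleic acid sensors, was detected in 14 cells with a median of 1.90. Cells 15, 5, 7 and 9, at 9.67, 8.07, 7.18 and 6.51, stood above the others, of which the highest was 3.82 in cell 16. Irf5 was detected in 9 cells, with 6.28 to 7.42 in cells 5, 6, 7, 12 and 14. Irf7, itself induced by type I interferon, was detected in 3 cells, at most at 2.99 in cell 2. Of 13 listed sensing genes 9 had rows. The NF-kappa-B inhibitor gene Nfkbia (mean 9.33, SD 1.09) and Nfkb1 (mean 5.35, SD 2.02) were detected in 17 cells, Rela in 15 and the adaptor Myd88 in 11, whereas the kinase Tbk1 and the DNA-sensing adaptor Tmem173 were detected in 4 and 5.

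The Ifitm genes encode membrane proteins that block the entry of enveloped viruses, and they stood in a fixed order in every cell. Ifitm3 (ENSMUSG00000025492) had a lowest value of 10.03 in cell 2, a median of 11.37 and a highest value of 13.26 in cell 4, where it ranked 2 of all rows. Ifitm2 lay between 6.85 (cell 15) and 9.68 (cell 2) with a median of 8.33, and Ifitm1 between 3.23 (cell 13) and 6.97 (cell 5) with a median of 6.05. In each of the 17 cells Ifitm3 was above Ifitm2 and Ifitm2 above Ifitm1, and the ranges of Ifitm3 and Ifitm2 did not overlap. Over cells Ifitm1 followed Ifitm3 (Spearman 0.73, Pearson 0.57, n = 17 cells), but not Ifitm2 (Spearman -0.02), and with the means of 3 sets of cells described further on subtracted these values were 0.55 and -0.48. The 3 genes lie on chromosome 7, Ifitm2 from 140954837 to 140955987, Ifitm1 from 140967221 to 140969825 and Ifitm3 from 141009586 to 141010770. They are similar in sequence, and the authors' treatment of reads that match several genes is unstated.

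The Ifi27 genes encode small membrane proteins of mitochondria and other organelles. Ifi27l2a had a lowest value of 6.56 in cell 2, a median of 11.11 and a highest value of 13.26 in cell 5. Ifi27 had a median of 10.38 and a highest value of 11.34 in cell 4, but 3 cells stood apart. Cells 5, 17 and 2 had 4.31, 4.39 and 4.89, and the next cell, cell 15, had 7.86. In cells 5 and 17 the neighbour Ifi27l2a was at 13.26 and 12.02, whereas in cell 2 it was at its lowest. Over cells the levels of Ifi27 and Ifi27l2a had a Spearman correlation of -0.26. Ifi27l2b, detected in 13 cells with a highest value of 5.20 in cell 16, followed Ifi27l2a (Spearman 0.77, Pearson 0.79), and the value was 0.66 without the 2 cells farthest from the median of Ifi27l2a. Ifi27l2a lay above Ifi27l2b in all 17 cells, by a median of 8.31. The 3 genes occupy chromosome 12 from 103434211 to 103457223, and near-identical stretches could divide their reads, so the levels of the single genes are uncertain.

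The p200 genes encode DNA-binding proteins of the nucleus and cytosol. Ifi205 had a lowest value of 7.03 in cell 15, a median of 9.26 and a highest value of 10.72 in cell 4. Ifi204, at a median of 7.23, was also lowest in cell 15, at 3.37, and highest in cell 17, at 8.47. Ifi203 ranged from 1.51 in cell 6 to 10.83 in cell 5, and after cells 5 and 4 (10.83 and 10.21) the highest was 8.36 in cell 9. Ifi202b was detected in 14 cells with a median of 4.46 and a highest value of 8.06 in cell 16. All 6 pairs of these genes were positively correlated over cells, with a median Spearman value of 0.38 against 0.00 over all pairs of the 7551 rows detected in at least 3 cells. Ifi204 followed Ifi205 (0.70) and Ifi202b (0.68), and Ifi203 followed them less (0.20 with Ifi204 and 0.21 with Ifi205). Without the 2 cells farthest from the median of Ifi205 the correlation of Ifi204 with Ifi205 was 0.64. The genes lie together on chromosome 1 between 173747293 and 174031810 on the minus strand, they are similar, and their reads may be shared.

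Lengths matter to these comparisons of levels. The libraries sample the 3′ ends of transcripts, and FPKM divides by length, so a short gene gains against a long one. Multiplied back by exonic length and rescaled, Ifi205 (mean 9.38, SD 1.07), whose exons cover 4177 bases, drew level with B2m (mean 9.39, SD 0.63), whose exons cover 860. Ifitm2 fell to rank 790 of the table from rank 224, and Jak1 came to rank 439 from rank 764. The count of genes detected in all cells stayed at 12, but on this scale Isg15 was detected in 3 cells and not 6, Bst2, Ifi27l2b, Ifi35 and Isg20 in 9 each, Ifi30 in 8, and Ifit3b in none. Other genes rose, among them Irf2 from 13 to 15 cells, Stat3 and Irf1 from 13 to 14, and Irf9 from 4 to 5.

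**Figure D3:**
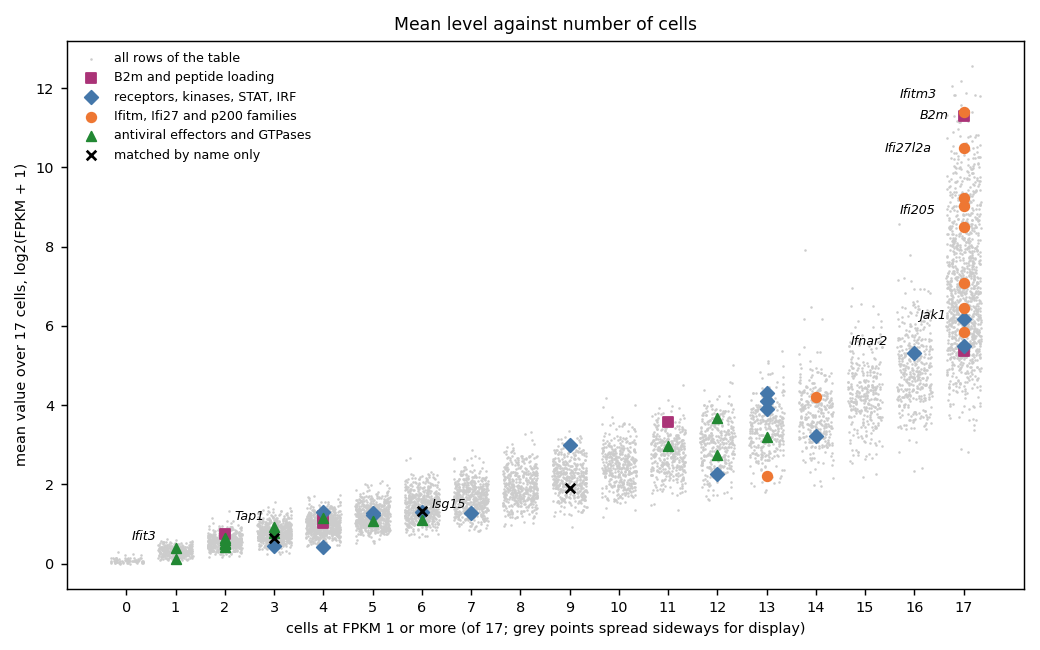
Mean value over 17 cells, log2(FPKM + 1), against the number of cells at FPKM 1 or more, for the genes described, by role (coloured) and all 8446 rows (grey). All 3 Ifitm genes, Ifi27, Ifi27l2a and 3 of the 4 p200 genes lie at 17 cells, with means up to 11.40, Ifi202b and Ifi27l2b lie at 14 and 13, and the antiviral effectors and GTPases lie between 1 and 13 cells.

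The antiviral effectors found in a cell differed from cell to cell. Of 10 effectors none was detected in all cells, against 13% of all rows, and 3 in at least 9, against 46.9%. Ifit1, Ifit3, Ifit3b, Oas1a, Oas1g and Oasl2 were detected in only 1 to 3 cells, against 17.9% of all rows. The median effector was detected in 2 cells and the median row of the table in 8. With 10 genes such shares are coarse. Bst2, which tethers budding virus at the cell surface, was detected in 13 cells with a median of 4.09 and 7.30 in cell 4. Ifi35 was detected in 12 cells, at most at 6.62 in cell 5. The exonuclease gene Isg20 was detected in 11, at most at 7.32 in cell 15. Bst2 and Isg20 ran opposite over cells (Spearman -0.58, Pearson -0.64), with Isg20 above 7 in cells 3 and 15, where Bst2 was at 1.51 and 0.00. This was the lowest Spearman value among the 351 pairs of members detected in at least 9 cells. Without the 2 cells farthest from the median of Bst2 the values were -0.46 and -0.53.

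Isg15 (ENSMUSG00000035692), a ubiquitin-like protein and one of the most strongly interferon-induced products, was detected in cells 10, 4, 12, 3, 15 and 8, at 4.19, 3.77, 2.90, 2.31, 2.23 and 1.80. Ifit1, which binds foreign RNA caps, was at 5.19 in cell 4 and 1.80 in cell 2 and under 1 elsewhere. Ifit3 was at 4.97 in cell 7 and at most 0.49 in the others, and Ifit3b was detected in cell 7 alone, at 1.30. Oas1a, which makes the activator of RNase L, was at 4.61 in cell 8 and 3.98 in cell 15, and its copy Oas1g at 4.11 and 2.63 in the same cells. The 2 Oas1 genes differed by a median of 0.01 over cells, most of which had neither detected, and by at most 1.35. They, like Ifit3 and Ifit3b, were found in the same cells, so the members of each pair cannot be counted as separate observations. Of the 7 genes Isg15, Ifit1, Ifit3, Ifit3b, Oas1a, Oas1g and Oasl2, 8 cells had none, 4 had 1, 3 had 2 and 2 had 3. With Oas1a and Oas1g taken as 1 and Ifit3 and Ifit3b as 1, 8 cells had none, 5 had 1 and 4 had 2.

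The interferon-inducible GTPases, which attack vacuoles of intracellular pathogens, were similarly scattered. Gbp2 was detected in 12 cells, with a median of 4.14 and values of 5.80 to 6.64 in cells 3, 4, 6, 13, 15, 16 and 17. Gbp3 reached 7.83 in cell 16 and 4.74 in cell 15, and its median was 0.14. Ifi47 was at 7.13 in cell 13 and 4.04 in cell 4. Gbp2b was detected in 5 cells, Gbp7 in 3 and Gbp6 in 2, each at most at 5.80. Cells 4 and 13 had 4 of the 6 GTPases and cell 9 had none. Of the 3 genes that only share a name, Irf2bp2 was detected in 9 cells, Irf2bpl in 6 and Isg20l2 in 3.

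Of 34 interferon-stimulated genes outside the naming rule, 21 had rows. Of these 4 were detected in all cells, against 13% of all rows, and 6 in at least 9 cells, against 46.9%. Ly6e (mean 7.76, SD 1.85), Shisa5 (mean 6.58, SD 1.52), Lgals3bp (mean 6.21, SD 2.39) and Lgals9 (mean 5.99, SD 1.60) were detected in 17 cells. At the other end 10 of the 21 were detected in 3 cells or fewer, against 17.9% of all rows in 1 to 3 cells and 0.912% in none. Xaf1, Sp100 and others lay between, in 4 to 13 cells. Among the 10 the Isg15 protease gene Usp18 was detected in cells 8, 12 and 16, and the RNA sensor Ddx58 in cells 10 and 16. Irgm1 was detected in no cell, its highest value being 0.39. The chemokine Cxcl10, named here because interferon gamma induces it, was detected in 13 cells with a median of 4.23 and was highest, at 10.98, in cell 7, which was also the cell with Ifit3. In cell 4, which had Ifit1, Cxcl10 was at 0.00.

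Cell 4 had the most of these genes detected, followed by cells 2 and 16. Cell 4 had 36 of the 52 genes detected (69.2%), cells 2 and 16 had 34 (65.4%), and cells 9 and 10 had 23 (44.2%), around a median of 26. In each cell 51.7% of all rows were detected. Cell 4 held the highest value of 8 genes, among them Ifitm3, Ifi27, Ifi205, Bst2, Ifit1, Gbp2b and Irf2. Cell 16 held the highest value of 9, among them Tap2, Tapbpl, Ifnar1, Irf9, Ifi202b, Gbp2 and Gbp3. How many of all rows were highest in each cell was not counted, so the 8 and 9 have no share of the table beside them. Cell 16 was also the cell least like the others over all genes, with a median Spearman correlation of 0.42 to them, while the highest such value was 0.49 in cell 6. Its part in these values was not tested. Without cell 16, 13 genes were detected in all remaining cells. Cell 4 had 5 of the 6 pericyte or smooth muscle markers detected, the most of any cell, besides all 8 measured fibroblast markers. Kcnj8 was at 4.98, under the 6.48 of cell 5, and Abcc9, detected in no other cell, was at 2.82. Rgs5, Myl9 and Acta2 were at 1.32, 1.22 and 1.10. They were detected in each of cells 1 to 5, at 1.04 to 2.00, so of these markers only Abcc9 was particular to cell 4. The part of these markers in the values of cell 4 was not tested.

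The 19 interferon-stimulated members detected in at least 3 cells moved together only slightly. Counted as such were the Ifitm, Ifi27 and p200 families, the antiviral effectors and the GTPases. B2m, Ifi30 and the loading, STAT and IRF genes, Irf7 included, were not counted. The 19 were 3 Ifitm, 3 Ifi27 and 4 p200 genes, the effectors Bst2, Isg20, Ifi35 and Isg15, and 5 GTPases. No Ifit or Oas gene passed the filter. Over the 171 pairs of 19 such genes detected in at least 3 cells the median Spearman correlation was 0.13, against 0.00 over all rows with the same filter, and 125 pairs (73.1%) were above 0, against 50.1%. The value rested largely on cell 4, without which it was 0.06. Cells 1 to 5, 6 to 14 and 15 to 17 shared patterns of low values across 224 genes that stay under 2.5 in all cells. With the means of these 3 sets subtracted the median was 0.11, and within cells 6 to 14 alone it was 0.01. Among the 351 pairs of the 27 members detected in at least 9 cells, 12 (3.42%) were at 0.5 or more and 8 (2.28%) at -0.5 or less. Over all pairs of the 3964 rows detected as widely the shares were 2.5% and 2.44%, so the members' counts were near those of the table. The highest were pairs of neighbouring relatives, Ifi27l2a with Ifi27l2b, Ifitm3 with Ifitm1, and Ifi205 with Ifi204. The next between unrelated genes were Ifitm3 with Ifi35 (0.66), Stat3 with Ifi27l2b (0.63) and Jak1 with Isg20 (0.63).

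B2m did not follow the mean of these 19 interferon-stimulated members over the cells. The mean of the 19 genes ran from 3.87 in cell 2 to 6.86 in cell 4, with a median of 4.64, whereas B2m was 11.69 in cell 2 and 11.49 in cell 4. The Spearman correlation of the mean with B2m was 0.09 (Pearson 0.11, n = 17 cells), and 0.20 (Pearson 0.24) without cells 4 and 16, which lay farthest from the median of the mean. It was -0.11 with the set means subtracted, so that its sign is not fixed by these data. The lower right plot of the paired values shows the highest B2m, in cell 15, at a middling mean of the 19 genes.

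**Figure D4:**
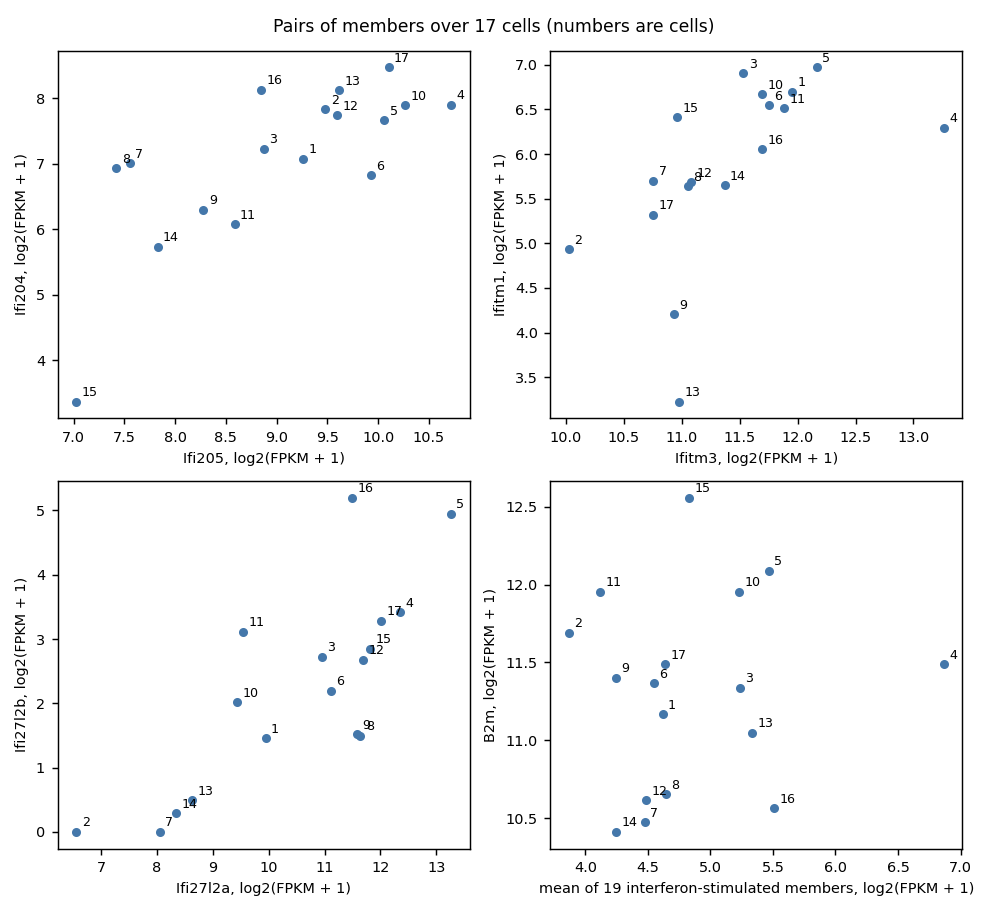
Values of 2 measures against each other in 17 cells (points, numbered by cell), all as log2(FPKM + 1): Ifi204 against Ifi205, Ifitm1 against Ifitm3, Ifi27l2b against Ifi27l2a, and B2m against the mean of 19 interferon-stimulated genes. The first 3 rise together (Spearman 0.70, 0.73 and 0.77) and the last does not (0.09).

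Of 3937 other genes detected in at least 9 cells, those most like the mean of the 19 interferon-stimulated genes over the 17 cells were Suco (Spearman 0.76), Sptan1 (0.72), Tob2 (0.69), Smchd1 (0.69), Pxn (0.69), Lsm14a (0.68), Plac8 (0.67) and Dst (0.65). Those most like B2m were Osbpl1a (0.85), Nfe2l2 (0.78), Scaf11 (0.77), Hadhb (0.75) and Med13 (0.75). The upper 2.5% of the candidates began at 0.47 for the mean and at 0.52 for B2m. None of these 13 genes stands in the lists of interferon or antigen presentation genes used here.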

How the data were processed

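RNA of 17 single cells was measured, each cell being 1 sample of the same group. The submitters' processing notes name the tools TopHat2 and Cufflinks and the build GRCm38, without their roles. Versions, settings and the handling of shared reads are unstated in the sources at hand. Values were deposited as FPKM on a log scale, read as log2 of FPKM plus 1; base and constant are not stated, and every FPKM threshold rests on that reading. Back-transformed, each cell sums to between 592939 and 592955, and sorted values differ between cells by at most 0.0165 above 3, the form quantile normalisation leaves. No counts were given, so depth and detection limits are unknown.

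Rows were chosen by symbol. Identifiers were matched to GENCODE M21 (8431 of 8446 rows, 99.8%) for coordinates and exonic length, and promoters to RefSeq on GRCm38.p6 by symbol. FPKM 10 is a value of 3.46 and FPKM 100 one of 6.66. Spearman and Pearson correlations describe cells and carry no p. The 3 sets of cells came from average-linkage clustering on low values. The members, roles and lists were chosen with earlier results of these data known. Genes named were members detected in at least 9 cells or reaching FPKM 100, the leading genes of each list and the genes most alike; other members and list genes were named after their values were seen. The pair statistic was tested on simulated data. The values of 1 member are not reported here. Alternatives covered threshold, pseudocount, rescaling, gene length, correlation measure and left-out cells. Computation used scipy 1.17.1, pandas 2.3.3 and numpy 2.4.6 under Python 3.11.15, and matplotlib 3.10.9 drew the figures.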

Additional observations from a re-analysis of the deposited data

How the results depend on the processing

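Members detected in all cells numbered 12, but 6 at FPKM 10 and 23 above the lowest value of each cell. Those in at least 9 cells numbered 27, and 50 above the lowest value. Members in no cell numbered 0, 4 at FPKM 10 and 1 after multiplication by gene length. The mean of the 19 interferon-stimulated genes, 4.84 (SD 0.71), was 4.10 with a pseudocount of 0.1, while rescaling or leaving out cell 16 moved it by less than its SD, and no alternative moved B2m by as much. The median pair correlation of interferon-stimulated members was 0.157 for members in at least 9 cells, 0.0087 in cells 6 to 14, and 0.0568 to 0.149 with single cells left out. The correlation of their mean with B2m was -0.113 with set means subtracted, 0.00837 in cells 6 to 14, 0.197 without the 2 farthest cells, and -0.0191 to 0.221 with single cells left out, the lowest without cell 5. The settings on cells 6 to 14 alone, and the count without cell 16, were chosen after seeing the data. The causes were not tested beyond what a threshold itself fixes. No paired analysis was possible because the cells form 1 group. With depth unknown, no limit of detection can be given.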
